A study of Mus musculus with 6 samples.

Results

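DNA replication and S phase genes were compared between spleens of mice that lack Was and those of wild-type mice. The set holds 39 genes: the subunits of the replicative helicase, the factors that mark, load and fire replication origins, the polymerases with their clamp and clamp loader, the enzymes that supply nucleotides, the regulators of S phase entry, and the factors that rebuild chromatin behind the fork. Members were found by their symbol among the 26452 genes of the deposited table, and all 39 were present. All 39 passed the filter on low values, and the lowest value of any member was 182 normalized counts, for Orc1 in WT454.

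In S phase a cell copies its genome once. Before that, the origin recognition complex, Cdc6 and Cdt1 load the MCM helicase onto DNA. Cyclin E with its kinase and the Dbf4-dependent kinase then switch the helicase on together with Cdc45 and the GINS complex. Polymerases alpha, delta and epsilon copy the strands, delta and epsilon with the sliding clamp PCNA. Transcription of most of these genes is driven by E2F factors at the G1 to S boundary, so their messenger RNAs are abundant in cycling cells and scarce in resting ones. In the mouse spleen, cycling cells include red cell precursors of the red pulp, granulocyte and other myeloid precursors, activated and germinal centre B cells, and dividing T cells.

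There are 3 libraries from male Was knockouts (WAS-KO; genotype Was -/-, strain 129S6/SvEvTac-Wastm1Sbs/J) and 3 from wild-type males (WT; 129S6/SvEvTac), all 10 weeks old, with no treatment named. RNA came from what the labels call the right spleen, libraries were made with an mRNA kit, and no cell type was isolated. The allele is carried in every cell of the knockout animals, and Was, an activator of Arp2/3-driven actin assembly, is made in blood cells. Names of libraries start with KO or WT (KO451, KO452, KO457; WT453, WT454, WT455).

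Reads assigned to genes ranged from 33352673 to 35001679 in knockout and from 30661759 to 38402758 in wild-type libraries. Was had 407 to 508 normalized counts in knockout and 4142 to 6561 in wild-type libraries, and its log2 fold change was -3.66 ± 0.25 (SE; limma, Benjamini-Hochberg adjusted p = 0.0117). That call was lost when any library but WT453 was left out, with log2 fold changes of -3.76 to -3.53 and adjusted p of 0.245 to 0.341 (limma). Markers of the labelled tissue were present: none of the 7 B cell and 7 T cell markers was at 0 in any library. WT453 stood apart from the other libraries. On the log2 scale its granulocyte precursor markers lay on average at 2.80 relative to the mean of the 6 libraries. On the same scale its immediate early and heat shock genes lay at 2.29 and its red pulp macrophage markers at -1.71. Several counts and medians over the members, and the log2 fold changes of some members, are given with and without WT453.

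Promoters of 4 members are shown here because the E2F motif in them is the best known common feature of the set. They are those of Orc1, the subunit of the origin recognition complex that cycles, Pola1, the catalytic subunit of polymerase alpha, E2f2, an E2F activator, and Mcm2, a helicase subunit, which had the smallest p of their functional groups. The sequences are from RefSeq on GRCm38.p6 and run 5′ to 3′ on the gene's strand. Each covers 250 bases before to 50 bases after a RefSeq start. That start can differ from the gene positions given below, which are from GENCODE. Capitals mark a match to TTTCCCGC, TTTGGCGC, TTTCGCGC or TTTGCCGC on either strand.
Orc1, chr4:108579204-108579503, plus strand: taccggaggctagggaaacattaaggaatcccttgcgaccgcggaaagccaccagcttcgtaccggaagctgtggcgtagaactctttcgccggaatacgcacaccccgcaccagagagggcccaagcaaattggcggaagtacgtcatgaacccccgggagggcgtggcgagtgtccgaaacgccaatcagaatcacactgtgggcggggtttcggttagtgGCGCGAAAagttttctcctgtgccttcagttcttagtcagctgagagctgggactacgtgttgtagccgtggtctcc
Pola1, chrX:93632106-93632405, minus strand: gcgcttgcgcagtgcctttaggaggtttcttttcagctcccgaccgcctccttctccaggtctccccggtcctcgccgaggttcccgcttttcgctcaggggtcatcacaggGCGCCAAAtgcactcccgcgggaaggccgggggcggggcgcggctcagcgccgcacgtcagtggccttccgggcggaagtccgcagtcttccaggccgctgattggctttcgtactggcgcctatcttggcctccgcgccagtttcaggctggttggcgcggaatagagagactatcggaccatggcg
E2f2, chr4:136172024-136172323, plus strand: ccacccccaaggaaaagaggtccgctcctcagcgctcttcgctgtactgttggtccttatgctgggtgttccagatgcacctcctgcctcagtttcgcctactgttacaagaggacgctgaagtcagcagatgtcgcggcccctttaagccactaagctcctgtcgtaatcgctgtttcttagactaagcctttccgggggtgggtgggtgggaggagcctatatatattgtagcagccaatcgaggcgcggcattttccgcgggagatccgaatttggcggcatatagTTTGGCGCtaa
Mcm2, chr6:88898731-88899030, minus strand: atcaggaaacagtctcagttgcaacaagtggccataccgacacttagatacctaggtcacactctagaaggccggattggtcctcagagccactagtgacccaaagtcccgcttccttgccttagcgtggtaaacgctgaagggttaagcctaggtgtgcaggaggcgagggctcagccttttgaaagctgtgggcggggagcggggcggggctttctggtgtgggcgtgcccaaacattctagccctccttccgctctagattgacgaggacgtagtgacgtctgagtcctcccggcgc

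Relative to the RefSeq start, the match in Orc1 covers bases -27 to -20, that in Pola1 bases -138 to -131, and that in E2f2 bases 40 to 47. A second RefSeq window of E2f2 (chr4:136180532-136180831), not shown above, holds 0 matches. Mcm2 holds no match in its window. Neither do Rrm2, a ribonucleotide reductase subunit, and Chaf1b, a chromatin assembly subunit, which had the smallest p of their own groups. A window was found for 33 of the 39 members (39 windows, since 5 members have more than 1). At least 1 match to the 4 E2F words was present in 14 of these 33 members and in 35.9% of their windows, against 2.26% of all 32851 windows of this length. The promoters of Mcm3, Mcm6, Mcm7 and Rfc3 hold more than 1 separate match. The CHR element TTTGAA, found in genes of G2 and mitosis, was present in 15.4% of member windows and 17.9% of all windows, and CCAAT in 59.0% and 37.4%. Overlapping E2F matches were merged, and a match describes the letters of a window and is not evidence of a bound site.

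Every one of the 39 members had a higher mean in knockout than in wild-type spleens, but none passed the test over all genes. The median log2 fold change of the 39 was 1.10, about 2.14-fold, and the values ran from 0.09 for Pold1 to 1.88 for Cdc6. Over all 22071 genes tested, the median was -0.03 and 47.7% had a higher mean in knockout spleens. The members were chosen with earlier results of these data known, so this is not an independent comparison. The adjusted p of the members ran from 0.344 to 0.902 (limma with an intensity trend, Benjamini-Hochberg over 22071 genes, 3 against 3), so 0 of 39 were called higher, where 0.0% of all genes were called higher and 0.00906% lower. Limma voom and limma voom with quality weights on the reads recovered from the values also called 0 members.

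At an unadjusted p under 0.05 there were 20 members, all higher in knockout spleens, against 5.5% of all genes tested. In the authors' deposited table, whose test is not stated, 7 members (Mcm2, Cdc6, Cdt1, Orc1, Pola1, Ccne1 and E2f2) had an FDR under 0.05, all higher in knockout, against 2.14% of all genes higher and 1.44% lower. A fold change of at least 2 was seen in 21 of 39 members (53.8%), against 10.1% of all genes tested in that direction. All 39 lay above the median of all genes, 38 above the 75th percentile and 6 above the 95th. In RNA of a whole spleen, more cycling cells and more of these messengers per cell cannot be told apart.

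**Figure D1:**
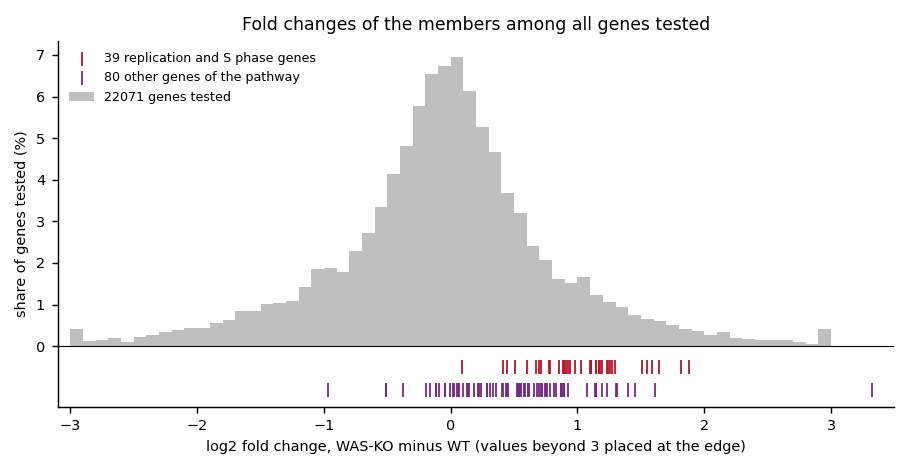
Log2 fold changes (WAS-KO minus WT, x axis) of all 22071 genes tested as a histogram (y axis, share of genes in percent), with a tick below it for each of the 39 replication and S phase genes (red) and 80 other genes of the pathway (purple). All 39 red ticks lie right of 0, from 0.09 to 1.88, whereas the histogram, in which values beyond 3 in size are placed in the outermost bins, is centred near 0.

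Within each genotype the libraries took the same order in most members, while the place of WT453 among the knockout libraries varied. KO451 was the highest of the 6 libraries in 37 of 39 members, against 20.4% of all genes tested. WT454 was the lowest in 34, against 16.2% of all genes. Within the knockout group, KO451 lay above KO457 and KO457 above KO452 in 37 members, against 18.7% of all genes. Within the wild-type group, WT453 lay above WT455 and WT455 above WT454 in 34, against 22.3%. Across the groups, WT453 lay above KO452 in 30 members and above KO457 in 12, against 51.1% and 50.9% of all genes.

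Libraries of 1 genotype differed by about as much as the genotypes did. KO451 exceeded the mean of KO452 and KO457 by a median of 1.07 on the log2 scale over the 39 members, which is close to the median difference of 1.10 between the groups. WT453 exceeded the mean of WT454 and WT455 by a median of 0.99. The 39 members together took 0.782% of assigned reads in KO451, 0.341% in KO452 and 0.411% in KO457, against 0.403% in WT453, 0.183% in WT454 and 0.231% in WT455. The share was 0.511% ± 0.237 in knockout and 0.272% ± 0.116 in wild-type libraries (SD, n = 3 each), and the groups overlap because WT453 lies between KO452 and KO457.

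Groups did not overlap in 8 of the 39 members, all higher in knockout spleens, against 9.54% of all genes tested. These 8 were Cdc6, Cdt1, E2f2, Gins4, Mcm2, Orc1, Pola1 and Pole. In the other 31, WT453 reached above at least 1 knockout library, or, in Fen1, KO457 lay below WT455. Without WT453, 38 of 39 members had groups that did not overlap, against 19.2% of all genes, and Fen1 was the exception. Leaving out KO452 gave 26 (14.6% of all genes), and leaving out KO451, KO457, WT454 or WT455 gave 8 or 9 (12.0% to 13.0%).

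The count at an unadjusted p under 0.05 depended on single libraries as well. It was 31 without WT453 (8.53% of all genes) and 25 without KO452 (5.28%). It was 6 without KO457 (4.08%), 5 without KO451 (3.44%), 4 without WT455 (4.43%) and 3 without WT454 (3.95%). The median log2 fold change was 1.36 without WT453, 0.69 without KO451 and 0.76 without WT454. A higher mean in knockout spleens was kept by all 39 members in each of these fits except that without WT454, in which Gins2 was at -0.02.

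**Figure D2:**
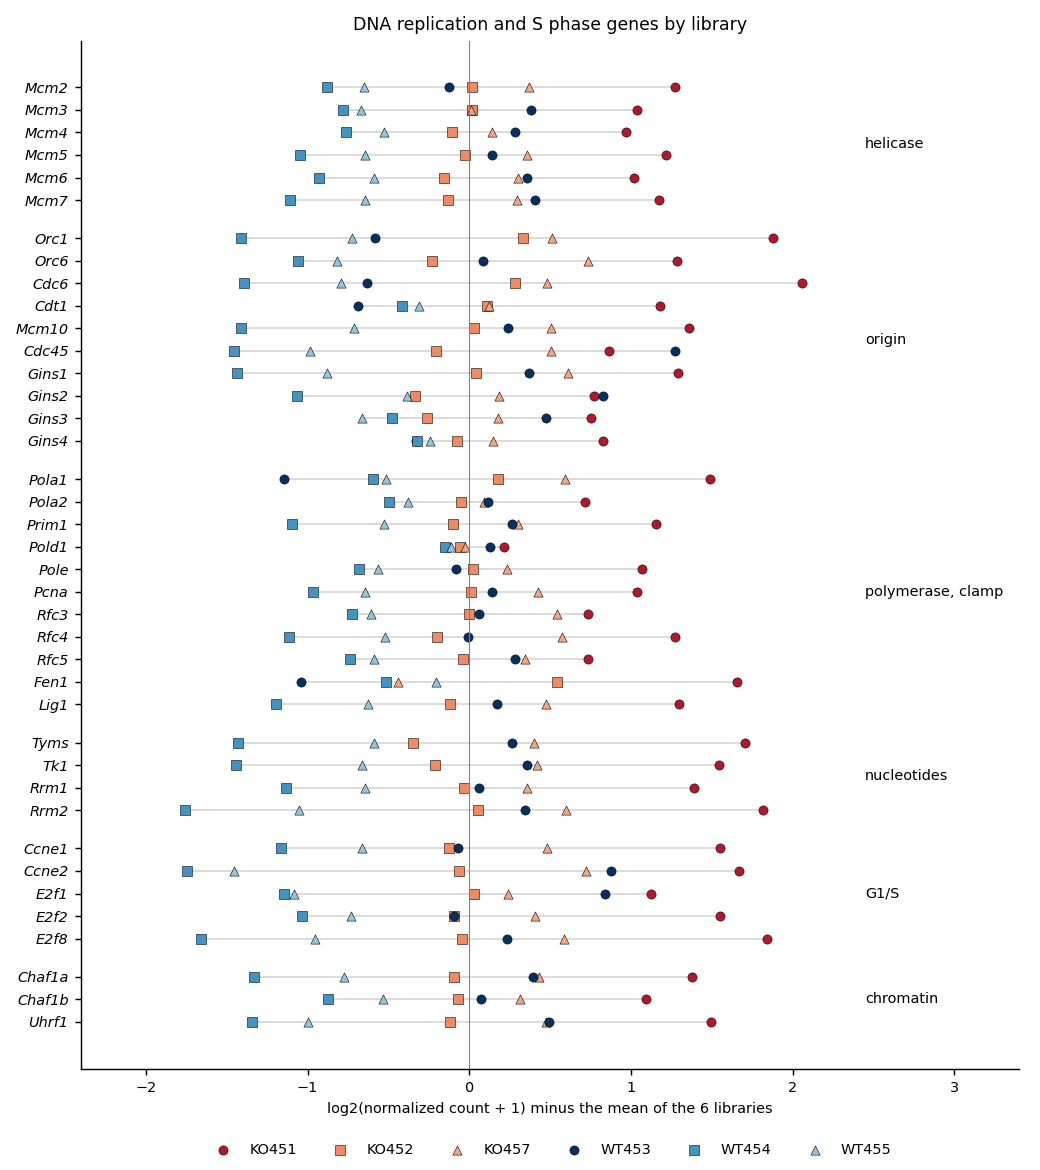
Log2(normalized count + 1) of each of the 39 members in each library, minus the mean of the 6 libraries (x axis), with genes as rows by functional group. Red and orange symbols are WAS-KO libraries and blue symbols are WT libraries; KO451 is the rightmost point in 37 rows and WT454 the leftmost in 34, while WT453 lies among the knockout points in most rows.

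The 6 subunits of the MCM helicase, the ring of Mcm2 to Mcm7 that unwinds DNA at the fork, had log2 fold changes between 0.67 and 1.10. Mcm2 (chromosome 6, 88883474 to 88898780, GRCm38), whose promoter is printed above, had 13391, 5613 and 7162 normalized counts in KO451, KO452 and KO457, against 5087, 3019 and 3533 in WT453, WT454 and WT455. The 3 knockout libraries lay above the 3 wild-type libraries, by a narrow gap between KO452 and WT453. Its log2 fold change was 1.10 ± 0.36 (SE; adjusted p = 0.373, limma), and the authors' deposited table lists it at an FDR of 0.0309.

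Mcm6, the subunit with the highest level per kb, had 15764, 6953 and 9566 normalized counts in KO451, KO452 and KO457, against 9923, 4078 and 5150.03 in WT453, WT454 and WT455. Here WT453 was above both KO452 and KO457, so the groups overlap, and the log2 fold change was 0.78 ± 0.42 (SE; adjusted p = 0.529, limma), or 1.15 without WT453. Mcm4, with the smallest difference of the 6, had 10292, 4890 and 5797 in knockout and 6389, 3096 and 3651 in wild-type libraries. It overlaps in the same way, with a log2 fold change of 0.67 ± 0.37 (SE; adjusted p = 0.535, limma), or 0.98 without WT453. Mcm3, Mcm5 and Mcm7 had 0.71, 1.03 and 0.89.

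Per length of the principal transcript, the subunits were of like abundance. The order in knockout libraries was Mcm6 at 3698 ± 1555 normalized counts per kb (SD, n = 3), Mcm7 at 3560.1 ± 1702, Mcm5 at 2809 ± 1295, Mcm2 at 2587 ± 1221, Mcm3 at 2568 ± 1142 and Mcm4 at 1948 ± 806. In wild-type libraries Mcm6 at 2194 ± 1069 was again first and Mcm2 at 1151 ± 319 last (SD, n = 3). Means of neighbours in either order differed by less than the SD, but the SD is a spread between libraries that the subunits share. It does not measure their difference within a library. Mcm7 was above Mcm5 and Mcm3, and both of these were above Mcm4, in every library. The other pairs of neighbours changed places in some library. By mean, Mcm2 came after Mcm3 and Mcm4 in wild-type libraries but before both in knockout libraries. Mcm2 was below Mcm4 in WT453 alone (1509 against 1780 per kb). It was below Mcm3 in every wild-type library and also in KO452 (1665 against 1914). Mcm2 was the only subunit of the 6 whose groups did not overlap. The exons of Mcm7 share bases with Ap4m1, Cops6 and the microRNA genes Mir25 and Mir93, so its level is uncertain where the strand setting is not stated.

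**Figure D3:**
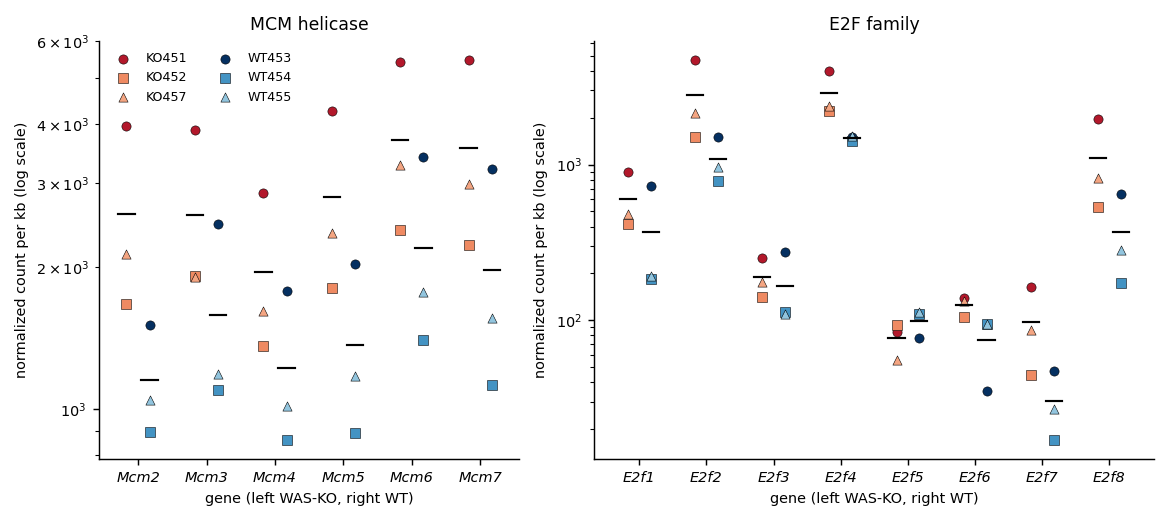
Normalized counts per kb of principal transcript (log axis) for the 6 MCM helicase subunits (left) and the 8 E2F genes (right), with WAS-KO libraries on the left and WT libraries on the right of each gene; symbols are libraries and bars are group means. The MCM subunits lie within a narrow band, and E2f2 and E2f4 are the most abundant E2F genes in both groups.

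Origin genes held the largest differences of the set and also some of the smallest. Cdc6 (chromosome 11, 98907801 to 98923940), the ATPase that loads the helicase together with Cdt1, had 7338, 2137 and 2458 normalized counts in KO451, KO452 and KO457, against 1133, 669 and 1015 in WT453, WT454 and WT455. Every knockout library was well above every wild-type library, WT453 included. The log2 fold change was 1.88 ± 0.48 (SE; adjusted p = 0.344, limma), or 1.32 without KO451 and 2.03 without WT453. The authors' deposited table gives Cdc6 an FDR of 0.000668.

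Orc1 (chromosome 4, 108579423 to 108614833) is shown above with a single E2F word just before its RefSeq start. It had 1790.4, 613 and 694 normalized counts in the knockout libraries against 325, 182 and 294 in the wild-type libraries, in the same library order. Its groups were likewise separate, and the log2 fold change was 1.81 ± 0.46 (SE; adjusted p = 0.344, limma), with an FDR of 0.00125 in the authors' deposited table. A processed transcript, Gm12743, shares bases with its exons on the other strand. Cdt1 (chromosome 8, 122568015 to 122573554), which brings the helicase to the origin, had 3076, 1460 and 1476 in KO451, KO452 and KO457 and 841, 1013 and 1091 in WT453, WT454 and WT455. WT453 was its lowest library, unlike in most members, and the log2 fold change was 0.94 ± 0.33 (SE; adjusted p = 0.385, limma; FDR 0.0489 in the authors' deposited table).

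Gins2, a subunit of the GINS complex that activates the helicase, differed in the place of WT453. It had 2117, 982 and 1412 normalized counts in KO451, KO452 and KO457, against 2207, 591 and 952 in WT453, WT454 and WT455. WT453 was the highest of all 6, and the log2 fold change was 0.41 ± 0.51 (SE; adjusted p = 0.788, limma), or 0.93 without WT453. Cdc45, the partner of GINS and MCM in the active helicase, was the other member that peaked in WT453, with 1969, 938 and 1535 in knockout and 2613, 392 and 545 in wild-type libraries. Its log2 fold change was 0.78, and 1.61 without WT453. Both were singled out after their values were seen, and both share exon bases with a gene on the other strand (Gse1 and Ufd1).

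The remaining origin members were Orc6 (1.19), Mcm10, which helps to start unwinding (1.26), Gins3 (0.45) and Gins4 (0.60), all as log2 fold changes, and Gins1, which was 2.46-fold higher in mean. Gins4 had 2366, 1262 and 1473 normalized counts in KO451, KO452 and KO457, against 1061, 1064 and 1123 in WT453, WT454 and WT455, which were nearly level; it was singled out after its values were seen. Its groups did not overlap, with an adjusted p of 0.473 (limma). The 4 GINS genes, whose products form a single complex, differed in the place of WT453. Its difference from the mean of WT454 and WT455 on the log2 scale was 1.53 in Gins1, 1.56 in Gins2, 1.05 in Gins3 and -0.04 in Gins4.

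Among polymerase genes the largest and the smallest differences came from subunits that work at the same fork. Pola1 (chromosome X, 93304767 to 93632155), the catalytic subunit of the polymerase that starts each new strand, had 3488, 1404 and 1866 normalized counts in KO451, KO452 and KO457, against 559, 818 and 866 in WT453, WT454 and WT455. All 3 knockout libraries were above all 3 wild-type libraries, and WT453 was the lowest. The log2 fold change was 1.51 ± 0.37 (SE), with the smallest p of the 39 members (unadjusted 0.00425, adjusted p = 0.344, limma), and the authors' deposited table lists an FDR of 0.00129. Its partners in the same enzyme differed less, with a log2 fold change of 0.50 for Pola2 and 0.91 for the primase Prim1.

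Pold1, the catalytic subunit of the lagging strand polymerase delta, was the flattest member. It had 2472, 2048 and 2088 normalized counts in knockout libraries and 2330.4, 1918 and 1969 in wild-type libraries, in the order above. The groups overlap, and the log2 fold change was 0.09 ± 0.19 (SE; adjusted p = 0.902, limma). Even so, KO451 was its highest and WT454 its lowest library. Pole, the leading strand polymerase, had a log2 fold change of 0.88 and groups that did not overlap, with an antisense gene, Gm15792, sharing exon bases.

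Pcna (chromosome 2, 132249162 to 132253314), the sliding clamp that tethers polymerases to DNA, had the highest level of this group. It had 18814, 9249 and 12319.8 normalized counts in KO451, KO452 and KO457, against 10094, 4686 and 5863 in WT453, WT454 and WT455. WT453 reached above KO452, and the log2 fold change was 0.98 ± 0.37 (SE; adjusted p = 0.409, limma). The clamp loader subunits Rfc3, Rfc4 and Rfc5 had log2 fold changes of 0.85, 1.10 and 0.70, and Lig1, the ligase that seals Okazaki fragments, had 1.10.

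Fen1, the nuclease that trims Okazaki fragments, was 1 of 2 members that broke the usual order of the knockout libraries. It had 7755, 3585 and 1808 normalized counts in KO451, KO452 and KO457, against 1191, 1719.8 and 2132 in WT453, WT454 and WT455, so that KO457 lay below WT455. Its log2 fold change was 1.17 ± 0.51 (SE; adjusted p = 0.466, limma). Its exons share bases with Tmem258 and Gm10143 on the other strand. It was singled out after its values were seen.

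Nucleotide supply genes spread widely between libraries of 1 genotype. Rrm2, the S phase subunit of ribonucleotide reductase, had 32327, 9516 and 13893 normalized counts in KO451, KO452 and KO457, against 11645, 2704 and 4423 in WT453, WT454 and WT455. WT453 exceeded KO452, and the log2 fold change was 1.65 ± 0.62 (SE; adjusted p = 0.417, limma), or 1.15 without KO451 and 2.23 without WT453. Rrm1, the larger subunit of the same enzyme, had 24255, 9055 and 11878 in the knockouts and 9665, 4215 and 5927 in the wild type. WT453 again exceeded KO452, and the log2 fold change was 1.14 ± 0.44 (SE; adjusted p = 0.420, limma).

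Per kb of principal transcript, Rrm2 was at 8472 ± 5520 and Rrm1 at 3769 ± 2023 normalized counts in knockout libraries (SD, n = 3). The levels in wild-type libraries were 2853 ± 2163 for Rrm2 and 1652 ± 697 for Rrm1 (SD, n = 3). Thymidylate synthase Tyms and thymidine kinase Tk1, which make thymidine nucleotides by the new and the salvage route, each had a log2 fold change of 1.17, with adjusted p of 0.516 and 0.501 (limma). Tk1 shares exon bases with Afmid on the other strand.

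Regulators of S phase entry included the E2F gene with the highest level in the spleen among the members. E2f2 (chromosome 4, 136172394 to 136196057), an activating E2F, had 22339.5, 7145 and 10086 normalized counts in KO451, KO452 and KO457, against 7135, 3715 and 4581 in WT453, WT454 and WT455. The groups did not overlap, but KO452 and WT453 were nearly equal. Its log2 fold change was 1.24 ± 0.45 (SE; adjusted p = 0.398, limma), and the authors' deposited table lists an FDR of 0.0372.

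E2f8, an atypical E2F that represses E2F targets late in S phase and is itself an E2F target, had 7267, 1959 and 3035 normalized counts in KO451, KO452 and KO457 and 2375, 639.6 and 1044 in WT453, WT454 and WT455. WT453 exceeded KO452, and a processed transcript, Gm2788, shares exon bases on the other strand. Its log2 fold change was 1.59 ± 0.61 (SE; adjusted p = 0.418, limma), or 2.10 without WT453. E2f1, the best known activator, had 2438, 1138 and 1318 in knockout and 2001, 503 and 526 in wild-type libraries. WT453 thus reached above both KO452 and KO457, and the log2 fold change was 0.93 ± 0.57 (SE; adjusted p = 0.566, limma), or 1.58 without WT453.

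Cyclin E drives entry into S phase and is encoded by Ccne1 and Ccne2. Ccne1 had 4087, 1276 and 1945 normalized counts in the knockout libraries, against 1327, 621 and 879 in the wild-type libraries, with WT453 just above KO452. Its log2 fold change was 1.27 ± 0.47 (SE; adjusted p = 0.406, limma; FDR 0.0462 in the authors' deposited table). Ccne2, singled out after its values were seen, had 4390.3, 1324 and 2277 in knockout and 2539.6, 411 and 503 in wild-type libraries. WT453 was 2.48 above the mean of the other wild-type libraries on the log2 scale in Ccne2 but 0.84 above it in Ccne1. The log2 fold change of Ccne2 was 1.55, or 2.38 without WT453. Exons of Ccne2 share bases with Ints8 on the other strand.

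Across the 8 E2F genes, the order per kb in knockout libraries was E2f4 at 2865 ± 987, E2f2 at 2783 ± 1701, E2f8 at 1107 ± 760 and E2f1 at 597 ± 258 normalized counts (SD, n = 3), followed by E2f3, E2f6, E2f7 and E2f5. In wild-type libraries it began with E2f4 at 1489 ± 61.5, E2f2 at 1085 ± 375, E2f1 at 369.7 ± 314 and E2f8 at 367 ± 246 (SD, n = 3). E2f8 was above E2f1 in all 3 knockout libraries, whereas their means were nearly equal in wild-type libraries. E2f4, a mainly repressive E2F that is no member of the set, was above E2f2 in all 3 wild-type libraries, by little in WT453, and in 2 of 3 knockout libraries, KO451 being the exception.

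Chromatin factors completed the set. Uhrf1, which reads hemimethylated DNA at the fork and recruits the maintenance methyltransferase, had 14744, 4829 and 7277 normalized counts in KO451, KO452 and KO457, against 7363, 2062 and 2624 in WT453, WT454 and WT455. WT453 exceeded both KO452 and KO457, and the log2 fold change was 1.23 ± 0.57 (SE; adjusted p = 0.487, limma), or 1.79 without WT453. Chaf1b, a subunit of the chromatin assembly factor that places new histones, had 2475, 1104 and 1439.9 in knockout and 1221, 632 and 799 in wild-type libraries, and its log2 fold change was 0.89 ± 0.37 (SE; adjusted p = 0.449, limma). Chaf1a, its partner, had 1.14.

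**Figure D4:**
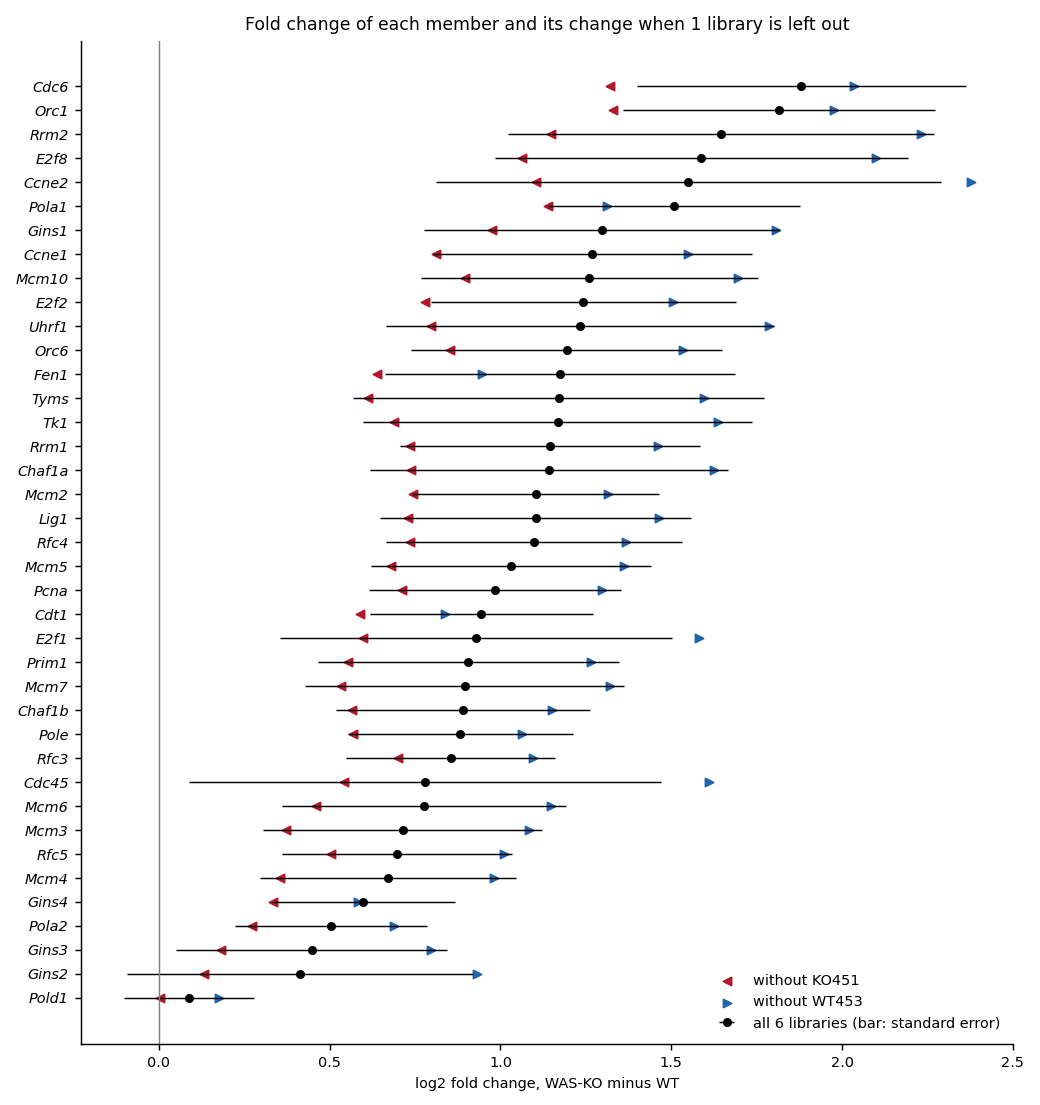
Log2 fold change (WAS-KO minus WT, x axis) of each member in order of size, with its standard error over all 6 libraries (black), and the same value without KO451 (red) and without WT453 (blue). Leaving out KO451 moves every member to the left, to a median of 0.69, and leaving out WT453 moves most to the right, to a median of 1.36.

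WT453 divided the members. It lay above the mean of WT454 and WT455 in 35 of 39, most in Cdc45, and below it in Cdt1, Fen1, Gins4 and Pola1, down to -0.68 on the log2 scale in Fen1. In the 8 members whose groups did not overlap, the median of that difference was 0.47, against 1.08 in the other 31, which follows in part from how the 8 were defined. An E2F word was present in the promoter window of 5 of the 6 of these 8 that have a window, namely Cdc6, Cdt1, E2f2, Orc1 and Pola1, and in 9 of 27 of the others. This split was made after the values were seen and was not tested.

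Other genes of the pathway had a smaller median log2 fold change than the members, which was not tested. Of 80 genes on lists of further replication and G1/S genes, 68 had a higher and 12 a lower mean in knockout spleens. Their median log2 fold change was 0.55, or 0.36 without KO451 and 0.71 without WT453. In the members it was 1.10, 0.69 and 1.36. None passed the test over all genes (lowest adjusted p 0.344, limma), and 20 higher and 1 lower had an unadjusted p under 0.05, against 5.5% and 5.46% of all genes tested. Groups did not overlap in 23 higher and 3 lower genes of the 80, against 9.54% and 9.94% of all genes tested. In the members the counts were 8 higher and 0 lower of 39.

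Of 15 other origin genes, 11 had a higher mean, from 0.93 for Gmnn, the inhibitor of Cdt1, to -0.19 for Orc4 (log2 fold changes). Orc1 and Orc6 thus stood above Orc4, a subunit of the same complex, which had 631 to 774 normalized counts in knockout and 730.4 to 874 in wild-type libraries. Of 23 other fork genes 21 had a higher mean, from 1.40 for Clspn, a mediator of the replication checkpoint, to -0.11 for Pole4, a small subunit of polymerase epsilon. All 9 other chromatin replication genes had a higher mean, from 1.08 for the histone chaperone Asf1b to 0.34 for Ssrp1.

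Of 10 other nucleotide supply genes, 8 had a higher mean. Samhd1, which degrades deoxynucleotides and is abundant in resting cells, had the lowest log2 fold change of the 10. It had 11350, 17658 and 13677 normalized counts in KO451, KO452 and KO457, against 19226, 20080 and 20655 in WT453, WT454 and WT455. Its groups did not overlap, with knockout lower by a log2 fold change of -0.51 ± 0.22 (SE; adjusted p = 0.457, limma). KO451, the highest library for most members, was its lowest.

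Among 12 activating G1/S regulators, all had a higher mean, from 0.02 for Cdk6 to 3.32 for Tfdp2, a dimerization partner of E2F factors. Tfdp2 had 9905, 1281 and 1171 normalized counts in KO451, KO452 and KO457, against 91.7, 343 and 465 in WT453, WT454 and WT455. All knockout libraries exceeded all wild-type libraries, and KO451 carried most of the mean. The log2 fold change was 3.32 ± 0.94 (SE; adjusted p = 0.349, limma), or 2.32 without KO451 and 2.62 without WT453.

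Restraining G1/S regulators were not uniformly lower. Of 11, 7 had a higher mean in knockout spleens, from 1.61 for E2f7, an atypical repressor, to -0.97 for Cdkn1c. Rb1, the retinoblastoma protein that holds E2F in check, had 6542, 3070 and 3297 normalized counts in KO451, KO452 and KO457, against 1369, 2197 and 2044 in WT453, WT454 and WT455. The groups did not overlap, and the log2 fold change was 1.14 ± 0.34 (SE; adjusted p = 0.355, limma); its exons share bases with Lpar6 and Rcbtb2 on the other strand. Cdkn1b, the inhibitor p27 of resting cells, had 3132 to 3863 in knockout and 4320 to 6288 in wild-type libraries, also without overlap, and a log2 fold change of -0.51 ± 0.21 (SE; adjusted p = 0.452, limma). Rb1 and Cdkn1b were named after their values were seen.

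Marker lists of the cell types a spleen holds were set beside the members. These lists were chosen with earlier results of these data known, so shares over all genes are not an independent comparison. All 12 markers of red cell precursors had a higher mean in knockout than in wild-type spleens, and in all 12 the groups did not overlap (9.54% of all genes tested). Their median log2 fold change was 2.65. Their summed level was 71448 to 341009 normalized counts in knockout and 15806 to 33082 in wild-type libraries, highest in KO451. As a mean deviation from the 6 libraries on the log2 scale, red cell precursor markers were at 2.52 in KO451, 0.49 in KO452 and 0.83 in KO457, against -1.58 in WT453, -1.59 in WT454 and -0.66 in WT455. The members were at 1.24, -0.04 and 0.36 in the knockout libraries, against 0.13, -1.03 and -0.66 in the wild-type libraries.

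Granulocyte precursor markers followed another pattern, with WT453 far above the rest. The summed level of the 5 genes was 10561 to 51078 normalized counts in knockout and 4518 to 151907 in wild-type libraries, 151907 being WT453, and 4 of 5 had a higher mean log2 value in knockout spleens. Their median log2 fold change was 0.24, and with 1 library left out it lay between -0.85 (without WT454) and 1.68 (without WT453). KO457 was the second highest library. All 14 mitosis genes had a higher mean, and their median log2 fold change was 1.13, or 0.68 without KO451, 0.63 without WT454 and 1.70 without WT453. Their summed level was 42641 to 144483 normalized counts in knockout and 17458 to 81413 in wild-type libraries, with mean deviations of 1.42, -0.23 and 0.52 in KO451, KO452 and KO457, against 0.60, -1.48 and -0.84 in WT453, WT454 and WT455.

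Germinal centre B cell markers had a higher mean in 5 of 7. Their summed level was 2222 to 3973 normalized counts in knockout and 2957 to 3509 in wild-type libraries, and was lowest in KO451. By mean log2 deviation they were lowest in WT454 (-0.37), with KO451 at -0.28. Their median log2 fold change was 0.50, or 0.76 without WT453 and 0.06 without WT454. B cell and T cell markers had a lower mean in 7 of 7 each. Their sums were 47303 to 89085 and 14876 to 27658 in knockout libraries, against 42544 to 141819 and 16295 to 39151 in wild-type libraries, with both lists highest in WT454. Their median log2 fold changes were -0.57 and -0.51, or -1.12 and -0.96 without WT453 and -0.22 and -0.26 without WT454. Red pulp macrophage markers had a higher mean in 6 of 6, megakaryocyte markers in 5 of 5 and plasma cell markers in 4 of 6. Immediate early and heat shock genes had a higher mean in 1 of 11. The median log2 fold change of the red pulp macrophage markers was 1.12, or 0.63 without WT453. That of the immediate early and heat shock genes was -1.11, or -0.68 without WT453. The sums of these 4 lists were 133823 to 209863, 1933 to 2727, 58977 to 91886 and 9018 to 13718 in knockout libraries. In wild-type libraries they were 34634 to 116081, 1082 to 1832, 67645 to 76138 and 14993 to 65683. No gene of any of these lists was at 0 in any library. The part of these cell types in the values of the members was not tested.

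**Figure D5:**
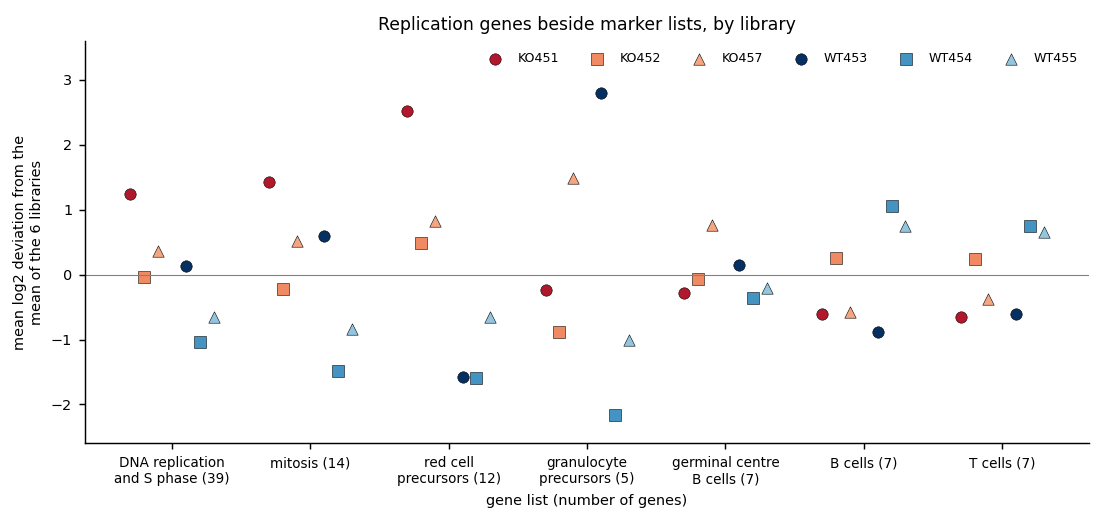
Mean log2 deviation from the mean of the 6 libraries (y axis) for the 39 replication and S phase genes and 6 marker lists (x axis, number of genes in brackets), with WAS-KO libraries left of WT libraries in each list. KO451 is highest for replication, mitosis and red cell precursor genes (1.24, 1.42 and 2.52), whereas WT453 is highest for granulocyte precursor genes (2.80).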

How the data were processed

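Spleen RNA of male mice was sequenced in 3 WAS-KO and 3 WT samples. Tools in the submitters' processing notes are STAR 2.5.3a, StringTie 1.3.1c, FastQC 0.11.5 and DESeq, with GRCm38 as build. How reads were counted and filtered, and whether by strand, is not stated there. Per the file headers, the authors deposited 1 table of log2 values, log2(read count divided by a size factor, plus 1), with their own log2 fold change, p-value and FDR per gene, whose test is not stated. This was read from the values: 100% were whole multiples of 1 step per library within a tolerance of 0.001, which returned the reads. Normalized counts are 2 to the power of the value, less 1.

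Limma 3.58.1 in R 4.3.3 was run with an intensity trend on the deposited log2 values, with 2 groups and no covariate. Genes with a mean normalized count of at least 1 were tested (22071; 4381 left out), with Benjamini-Hochberg adjustment and a threshold of 0.05. Fold changes on this scale are too small where reads are few. Samples carry separate numbers, but the labels do not say that each is 1 animal, so p-values cover only the spread between these libraries. No batch is named. Knockout column names carry a suffix that wild-type ones lack; what it marks is not stated, and it cannot be told apart from genotype.

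Positions, exon overlaps and principal transcript lengths came from GENCODE M21 (GRCm38), in which all 200 listed genes were found. Of the 39 members, 14 share exon bases with another gene model. The members and all gene lists were chosen with earlier results of these data known. Values in every library are given, in each functional group, for the member with the highest level, the largest and smallest log2 fold change, the smallest p, and those at an FDR under 0.05 in the authors' table. For each list of other pathway genes, those with the largest and smallest log2 fold change are named, except 1 that is not reported here. Further genes are marked as named later. Alternatives were other pseudocounts, filters, scalings, voom, and each library left out. The test was tried on simulated counts, with genes drawn independently and the same spread setting for all genes. That trial does not show how the test performs on these libraries, whose spread the members share.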

Additional observations from a re-analysis of the deposited data

How the results depend on the processing

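No paired analysis was possible because the groups share no replicate number. The median log2 fold change of the 39 members was between 1.04 and 1.26 over 9 other settings (pseudocounts of 0.1 and 0.01, no filter, a mean CPM of at least 1, quantile normalization, TMM factors, removal of immunoglobulin and haemoglobin genes, voom, voom with quality weights) and between 0.69 and 1.36 with 1 library left out. No member was called in any of these 15 settings, with a lowest adjusted p of 0.109 (limma voom with quality weights). At an unadjusted p under 0.05 there were 37 members in voom with quality weights, which gave WT453 a weight of 0.178, 18 to 20 in the other 8 settings, and 3 to 31 with 1 library left out. Over all genes, 2 were called in the main fit. The count was 1 in voom, 4 in voom with quality weights, 3 without immunoglobulin and haemoglobin genes, and 0 to 2 with 1 library left out. The log2 fold change of Gins2 was between -0.017 (without WT454) and 0.93 (without WT453) with 1 library left out. Was lost its call in 5 of the 6 fits that leave out a library. The cause of these moves was not tested. Count models were planned but not run, a choice made because the table was deposited as log2 values and not as counts. The recovered reads would have allowed them, and voom was the only kind of test run on those reads. Every member had at least 182 normalized counts in every library. With 3 libraries a group, an exact permutation test cannot go below 0.1.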
